A study of Mus musculus with 96 samples.

Results

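The loss of Pms1 was examined in the cerebral cortex of mice aged 6 months by setting the 16 cortex libraries of animals without Pms1 against the 16 of animals with both copies, with the huntingtin knock-in as a term in the model. These 32 libraries, 1 per animal, were taken by genotype and tissue from the 96 libraries of the series. The null side held 8 Pms1 null animals (labelled Pms1-/-) and 8 Q140 Pms1 null animals, which carried the heterozygous Q140 knock-in as well. The other side held 8 WT animals and 8 heterozygous Q140 animals. Every genotype had 4 females and 4 males, and all animals were on a C57BL/6 background. The series text states 16 animals per group, whereas the labels give 8 per genotype and tissue, and the labels were followed. No source used here states how the Pms1 allele was made or which exons it removes.

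Pms1 belongs to the MutL family of DNA mismatch repair proteins, which work as pairs and act after MutS proteins have recognised a mismatch or a looped-out repeat. The same proteins are known to alter the length of repeated DNA in tissues that no longer divide. The Q140 allele carries an expanded CAG repeat in the mouse huntingtin gene (Htt) and is widely used as a model of Huntington's disease. Pooling over the knock-in asks what the absence of Pms1 does to cortical RNA in either setting.

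Libraries summed to between 32690703 and 48699259 counts in null animals and between 28672325 and 49176625 counts in 2-copy animals. The libraries carried cortical markers: Slc17a7, the vesicular transporter of cortical glutamatergic neurons, lay at 1094 to 1413 CPM (counts scaled by the normalised library total). Among genes of striatal neurons, the receptor Drd2 lay at 0.293 to 0.762 CPM, Adora2a at 1.45 to 2.65 CPM and Drd1 at 4.00 to 7.06 CPM. Ppp1r1b, of the same striatal list, lay far higher, at 70.9 to 107 CPM. Choroid plexus genes summed to a median of 5.69 CPM in null animals and 6.48 CPM in 2-copy animals, with single libraries of up to 614 CPM and 764 CPM. The libraries were bulk tissue, so fewer cells of a type and less RNA per cell cannot be told apart.

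One feature of the labels ran along with the genotype. Each animal has a code of 2 numbers, and no label says what the first one stands for. A first number of 20 or more was carried by 13 of 16 null animals and by 3 of 16 2-copy animals, namely WT 27-2 and 27-5 and Q140 23-4. The null animals with lower numbers were Pms1 null 16-4, Q140 Pms1 null 17-2 and Q140 Pms1 null 18-1. The second principal component of the 32 libraries, with 9.46% of the variance, split at that number on both sides: it lay at 0.638 to 16.97 in null animals with codes of 20 or more, at -8.89 to -4.08 in null animals with lower codes, at 1.25 to 11.0 in 2-copy animals with codes of 20 or more and at -20.9 to -4.39 in 2-copy animals with lower codes.

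Meg3, an imprinted long noncoding RNA, showed the same split and was chosen after its values were seen. Among null animals it lay at 5699 to 6574 CPM with codes of 20 or more and at 4806 to 5268 CPM with lower codes. Among 2-copy animals it lay at 5552 to 6200 CPM with codes of 20 or more and at 3850 to 5289 CPM with lower codes. The level therefore followed the code on either side of the comparison, and the cut at 20 was placed after this component and Meg3 had been seen. The comparison below is given as the design states it, and most results are set beside the same value from a model that also holds a term for codes of 20 or more.

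**Figure D1:**
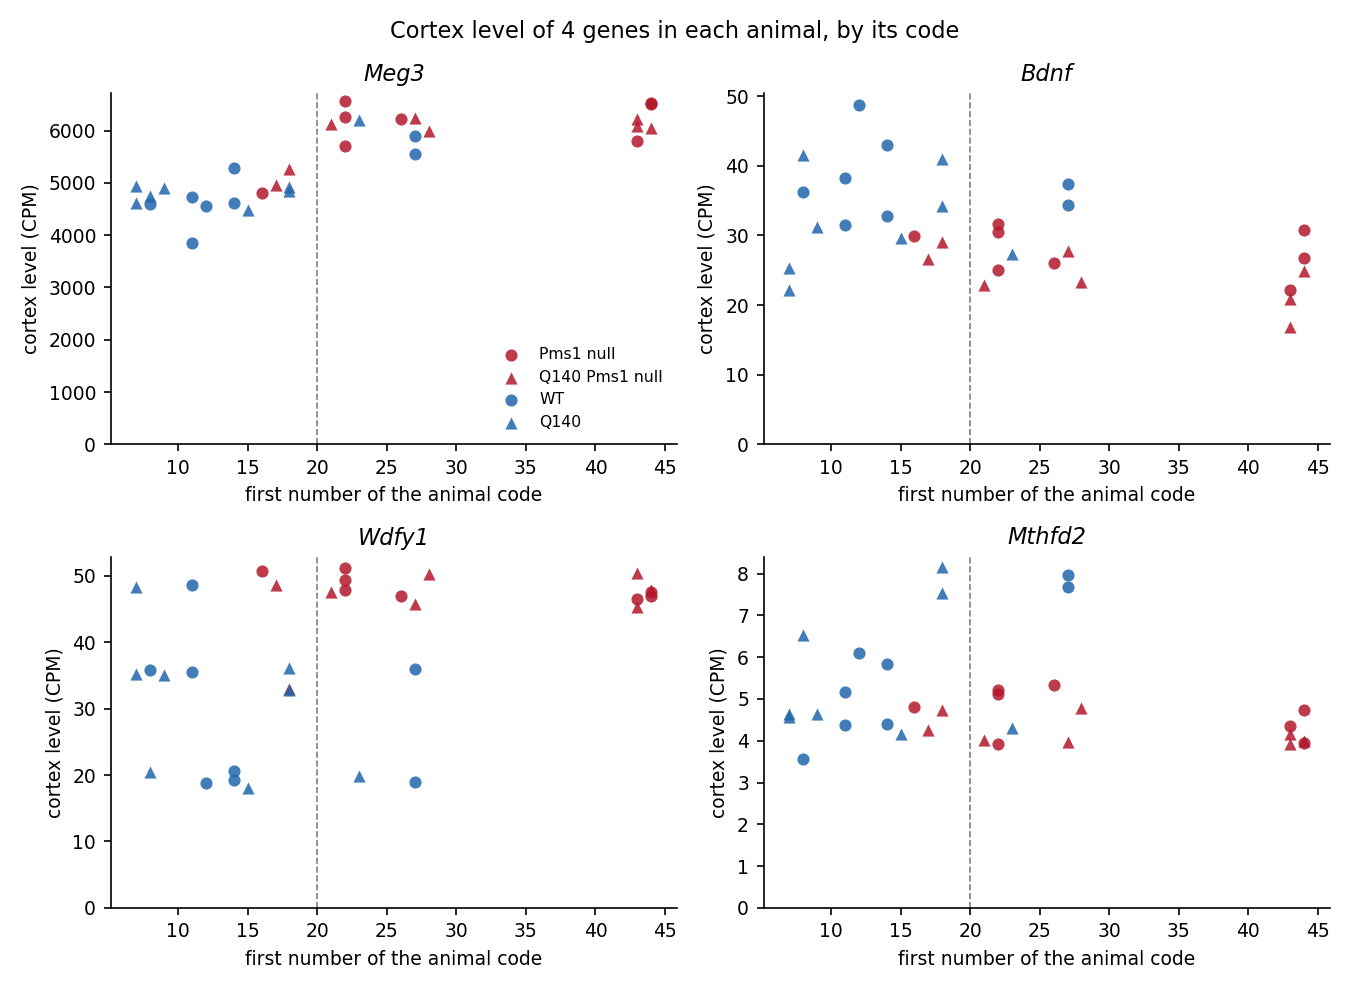
Cortex level (CPM, y axis) of 4 genes in each of the 32 animals against the first number of the animal code (x axis); red marks null animals, blue 2-copy animals, triangles the Q140 knock-in, and the dashed line a first number of 20. Meg3 steps up at the line on both sides of the comparison, Bdnf is lower in null animals on both sides of the line, Wdfy1 falls into 3 separate levels, and Mthfd2 is at most 5.33 CPM in null animals, against up to 8.17 CPM in 2-copy animals.

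Pms1 itself did not separate the groups in cortex. Its RNA was at 2.86, 3.40 and 4.03 CPM (lowest, median and highest) in null animals, against 3.12, 3.59 and 4.37 CPM in 2-copy animals. The ranges overlapped, at a log2 fold change of -0.08 ± 0.05 (SE) and an adjusted p of 0.335. The cortical level of Pms1 thus gave no check of the genotype labels. In striatum of the same animals Pms1 was at 3.09, 4.11 and 4.65 CPM in null animals, against 4.37, 5.39 and 6.31 CPM in 2-copy animals, a log2 fold change of -0.38 ± 0.05 (adjusted p = 0.000101). Htt, the other locus of the design, was at 231, 247 and 262 CPM in null cortex, against 208, 235 and 251 CPM in 2-copy cortex. Its log2 fold change was 0.09 ± 0.02 (adjusted p = 0.00733), and 0.03 ± 0.02 with the code term (adjusted p = 0.637).

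Across the transcriptome, loss of Pms1 went with many small differences. Of 18491 genes tested, 2665 (14.4%) passed an adjusted p below 0.05, with 1467 (7.93%) higher and 1198 (6.48%) lower in null animals. The median size among them was 0.12 on the log2 scale (quartiles 0.09 and 0.20), and 38 exceeded 1.5-fold, 36 of them higher and 2 lower. With the code term 6 genes (0.0324%) passed, 3 in each direction, while 2372 had an unadjusted p below 0.05, and DESeq2 with the same terms called 178. In that model the code term itself was passed by 2837 genes (15.3%).

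The split by code was also looked at within each side. Among null animals alone, 904 genes (4.99%) differed between codes of 20 or more and lower codes, and among 2-copy animals alone 488 genes (2.76%) did. These lists share no library, but the cut at 20 was placed after a component of both sides together and Meg3 had been seen. The lists are therefore not independent of that choice. They had 253 genes in common, 28.0% of the null list and 51.8% of the 2-copy list, and all 253 moved in the same direction. Within codes of 20 or more alone, the null comparison called 5 genes (0.0252%). Within lower codes alone it called 0 genes (0%; 1255 at an unadjusted p below 0.05), and there it set 3 null animals against 13, with no other tool run.

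A division at a first number of 16, at which all null animals but only 5 of 16 2-copy animals lie, left more calls. Among animals with codes of 16 or more, 408 genes (2.11%) passed, 139 higher and 269 lower, and a term for those codes in the full set gave 388 (2.1%). Calls that were higher lost the most: the 1467 genes called higher had a median log2 fold change of 0.15, which was 0.10 with a term at 16 and 0.07 with a term at 20. The 1198 genes called lower had medians of -0.10, -0.10 and -0.07.

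**Figure D2:**
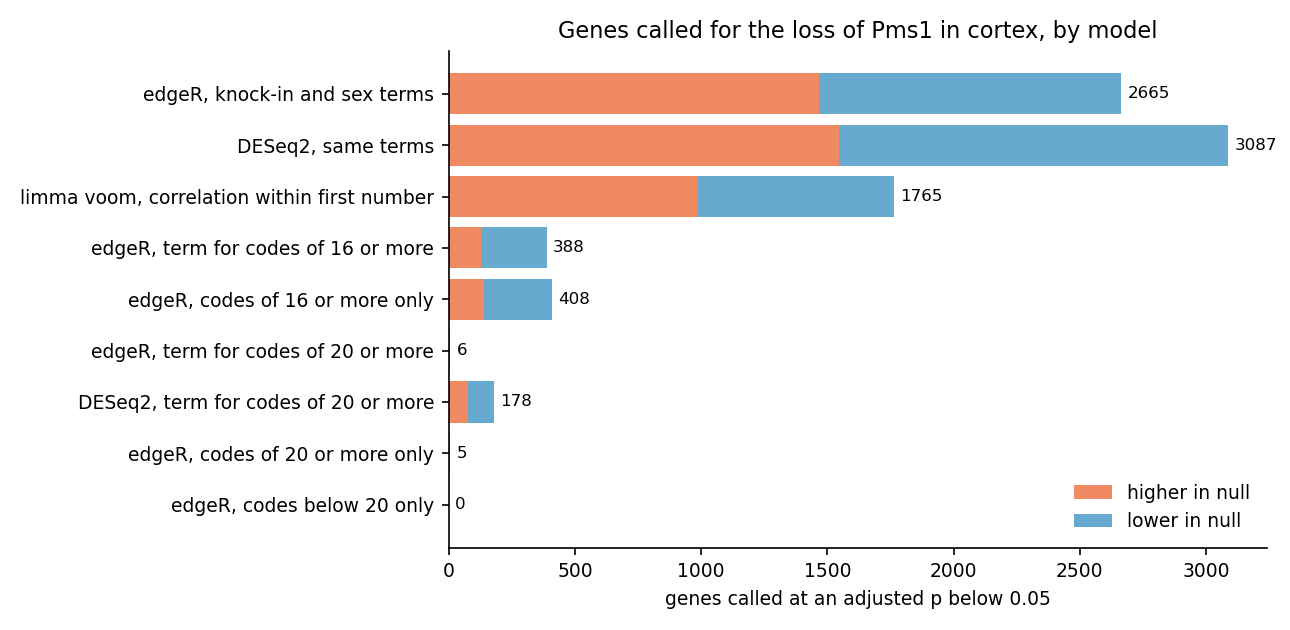
Number of genes called at an adjusted p below 0.05 (x axis) for null against 2-copy cortex under 9 models (y axis), with calls higher in null animals in orange and lower ones in blue. The count is 2665 with knock-in and sex as terms, 388 with a term at a code of 16 and 6 with a term at 20.

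Several of the genes that were lower without Pms1 encode a growth factor or proteins linked to growth-factor signalling. They are described as single genes and were picked because they were lower. They do not show that genes of this kind fell as a set. Bdnf and Vgf belong to the neurotrophin list given below, in which 2 of 7 genes fell and 1 rose. Bdnf, the neurotrophin released by cortical neurons, was at 16.8, 26.4 and 31.7 CPM in null animals, against 22.1, 34.3 and 48.8 CPM in 2-copy animals. All 16 null animals lay below the 2-copy median, and the log2 fold change was -0.40 ± 0.08 (adjusted p = 0.00128). The value was -0.44 among codes of 16 or more (adjusted p = 0.0336) and -0.32 with the term at 20 (adjusted p = 0.148).

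Klf10, a transcription factor of the early response to growth factors, was at 24.0, 31.3 and 45.3 CPM in null animals, against 29.5, 47.4 and 66.9 CPM in 2-copy animals. All 16 null animals were again below the 2-copy median (log2 fold change -0.49 ± 0.10, adjusted p = 0.00165). Its difference was -0.55 ± 0.13 with the term at 20 (adjusted p = 0.0701). Dusp14 and Dusp4 encode phosphatases that switch off MAP kinases. Dusp14 was at 54.3, 59.5 and 69.4 CPM in null animals, against 65.1, 76.4 and 89.2 CPM in 2-copy animals, with 13 of 16 null animals below every 2-copy animal. Its log2 fold change was -0.31 ± 0.04 (adjusted p = 0.000216), and -0.27 ± 0.06 with the term at 20 (adjusted p = 0.0701). Dusp4 was at 6.81, 11.1 and 15.1 CPM in null animals, against 10.4, 14.3 and 20.4 CPM in 2-copy animals (log2 fold change -0.43 ± 0.08, adjusted p = 0.0015, and -0.37 with the term at 20, adjusted p = 0.135). Vgf, a secreted neuropeptide precursor that BDNF is known to induce, was lower by 0.21 (log2 fold change -0.21, adjusted p = 0.00966), and its value was -0.07 with the term at 20 (adjusted p = 0.629).

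Decreases were ranked among called genes of at least 1 CPM with an established name and the same sign in all 4 strata of sex and knock-in, and increases likewise. Besides 5 named elsewhere, the largest decreases were those of Tmem267, Bfsp2 (a lens intermediate filament protein), F2rl2 (a protease-activated receptor), Pcdha11 (an alpha protocadherin), Loxl1 (an elastin cross-linking enzyme), Nipal4, Fabp7 (a fatty acid binding protein of glia), Sox7 (an endothelial transcription factor), Inmt (an indolethylamine methyltransferase) and Map3k14 (the NF-kB-inducing kinase). Together with Klf10, Dusp4, Bdnf, Stc2 and Slc7a3 they make up the 15 largest decreases of that ranking, at log2 fold changes between -0.54 and -0.33. These 15 lay between -0.58 and -0.27 with the term at 20, each at least 50% of its size without the term, but only Map3k14 passed there and the other 14 had an adjusted p of 0.0701 or more. Pcdha11 shares its last exons with the other alpha protocadherins, so its own count is uncertain. Map3k14 was at 4.57, 5.39 and 7.68 CPM in null animals, against 5.80, 6.99 and 9.28 CPM in 2-copy animals, and its value with the term at 20 was past the threshold (-0.43 ± 0.08, adjusted p = 0.0361).

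The 15 largest increases of the same ranking were Wdfy1, Aanat (an enzyme of melatonin synthesis), Wdr27, Rtbdn (a riboflavin-binding protein of retina), Ap1g2 (an adaptor-complex subunit), the collagens Col24a1 and Col16a1, Muc3a (a mucin), Cdhr3, Ybx2 (a germ-cell RNA-binding protein), Cfap44 and Ccdc108 (proteins of cilia and flagella), Lca5l, and the antisense transcripts Tbx3os1 and Ttc39aos1, at log2 fold changes between 0.42 and 0.67. They lay between 0.06 and 0.75 with the term at 20, where 7 of 15 had at least 50% of their size without the term and none passed. Whether strand was used in the counting is not stated, and the 2 antisense transcripts cannot be told from their partner genes.

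Aanat was at 0.515, 1.33 and 1.87 CPM in null animals, against 0.378, 0.871 and 1.46 CPM in 2-copy animals, with a log2 fold change of 0.58 ± 0.15 (adjusted p = 0.00905) that was 0.06 ± 0.14 with the term at 20. Col16a1 was at 22.9, 32.0 and 35.7 CPM in null animals, against 17.8, 20.9 and 34.4 CPM in 2-copy animals. Its log2 fold change of 0.45 ± 0.08 (adjusted p = 0.000872) was 0.17 ± 0.06 with the term. Both sets of ranges overlapped. Wdr27 was at 1.26, 1.91 and 2.79 CPM in null animals, against 0.735, 1.41 and 2.09 CPM in 2-copy animals, at 0.58 ± 0.12 (adjusted p = 0.00133) and at 0.49 ± 0.15 with the term (adjusted p = 0.146).

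**Figure D3:**
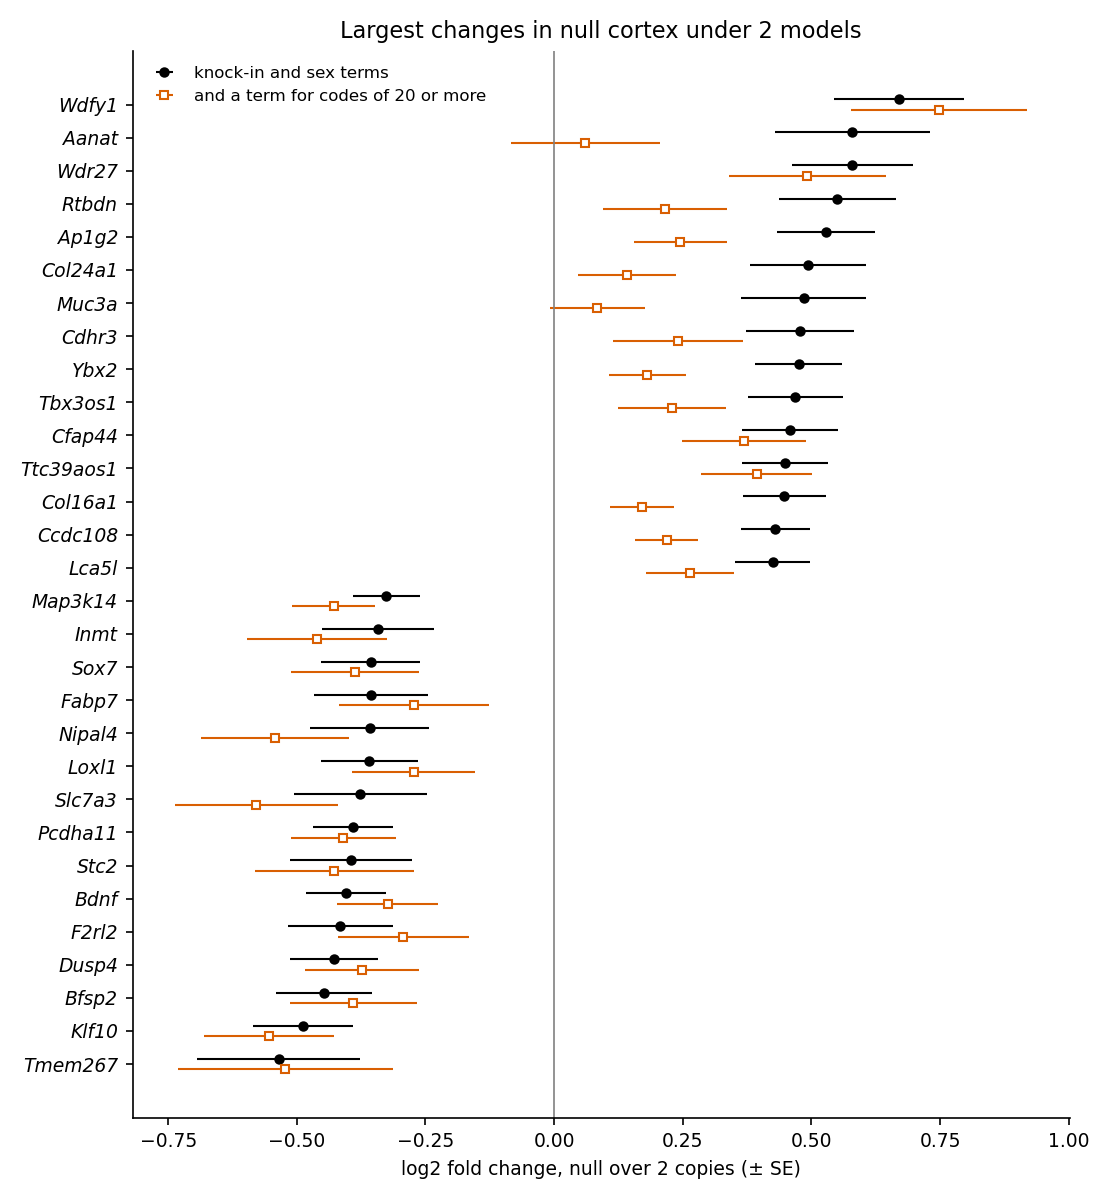
Log2 fold change of null over 2-copy cortex (x axis, ± SE) for the 15 largest increases and 15 largest decreases (y axis), with knock-in and sex as terms (black circles) and with a further term for codes of 20 or more (orange squares). The decreases stay between -0.58 and -0.27 with that term, while increases such as Aanat and Muc3a move to 0.06 and 0.08.

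The smallest p-values belonged to modest differences in genes with narrow spreads. Matk, a kinase that restrains Src-family kinases, was at 168, 188 and 198 CPM in null animals, against 149, 165 and 185 CPM in 2-copy animals (log2 fold change 0.19 ± 0.02, adjusted p = 6.37e-05). Bmp1, the protease that trims procollagens, was at 89.3, 104 and 118 CPM in null animals, against 64.1, 79.5 and 112 CPM in 2-copy animals (0.37 ± 0.05, adjusted p = 0.00011). In both genes all 16 null animals lay above the 2-copy median. Dgkq (a diacylglycerol kinase), Rab36 (a Rab GTPase) and Nvl (an ATPase of ribosome assembly) completed the 5 with the smallest p among increases, at 0.17, 0.17 and 0.17. Among decreases the 5 were Dusp14, Uck2 (a uridine-cytidine kinase), Slc3a2, Cct4 (a chaperonin subunit) and Nudt4 (a diphosphoinositol phosphate hydrolase), the last 4 at -0.18, -0.13, -0.13 and -0.11. The term at 20 left the 5 increases at 0.10 to 0.23 and the 5 decreases at -0.27 to -0.08, with Uck2 at -0.15, Slc3a2 at -0.11 and Cct4 at -0.12. None of these 10 passed there, and their adjusted p lay between 0.0701 and 0.121.

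The 6 genes called with the term at 20 were also called without it. Besides Map3k14 these were Shmt2 and Mog, which were lower, and Ccdc3, Dysf and Tbc1d9b, which were higher; the last 5 were named after their values were seen. Tbc1d9b, a member of the Rab GTPase-activating family, was at 248, 254 and 274 CPM in null animals, against 205, 240 and 270 CPM in 2-copy animals. All 16 null animals lay above the 2-copy median, at a log2 fold change of 0.12 ± 0.03 (adjusted p = 0.0032) and 0.17 ± 0.03 with the term (adjusted p = 0.0361). Dysf, the membrane-repair protein dysferlin, was at 3.84, 4.60 and 5.78 CPM in null animals, against 3.05, 3.84 and 4.55 CPM in 2-copy animals (0.28 ± 0.05, and 0.34 ± 0.07 with the term, adjusted p = 0.0456). Ccdc3 was at 7.37, 8.08 and 8.94 CPM in null animals, against 5.02, 6.98 and 8.23 CPM in 2-copy animals (0.24 ± 0.05, and 0.33 ± 0.06 with the term, adjusted p = 0.0361). Mog, a protein of the outer myelin surface, was at 14.4, 16.7 and 19.1 CPM in null animals, against 15.8, 19.1 and 22.8 CPM in 2-copy animals (-0.17 ± 0.04, and -0.25 ± 0.05 with the term, adjusted p = 0.0385).

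Shmt2 is a mitochondrial enzyme of serine and folate metabolism. It and 6 further genes are described together because of what they are known to do. They were picked because they were lower, so they say nothing about how many genes of this kind changed. Atf4 is the transcription factor that responds to amino acid shortage and to unfolded protein. Mthfd2 is a folate-cycle enzyme, Slc7a3 a carrier of cationic amino acids, Slc3a2 the shared heavy chain of amino acid exchangers, Sesn2 a leucine sensor and Stc2 a secreted glycoprotein, and several of these are known targets of Atf4. Their log2 fold changes were -0.28 for Atf4 (adjusted p = 0.00224), -0.33 for Mthfd2 (0.0321), -0.38 for Slc7a3 (0.048), -0.13 for Slc3a2 (0.000216), -0.14 for Sesn2 (0.0102), -0.40 for Stc2 (0.0218) and -0.10 for Shmt2 (0.0399). The call for Slc7a3 is near the threshold and was lost in 20 of the 32 fits that leave out 1 library.

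Atf4 was at 85.0, 93.2 and 101 CPM in null animals, against 89.2, 109 and 145 CPM in 2-copy animals, and 11 of 16 2-copy animals lay above every null animal. Its log2 fold change was -0.28 with the term at 20 as well (adjusted p = 0.125). Mthfd2 was at 3.92, 4.31 and 5.33 CPM in null animals, against 3.57, 4.90 and 8.17 CPM in 2-copy animals. The null values stood close together, and the 2-copy values were spread out. For Mthfd2, 7 of 16 2-copy animals lay above all null animals and 1 below all of them.

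The highest 4 Mthfd2 values were those of 2-copy animals whose first number is also carried by a null animal. Mthfd2 was at 4.74 CPM in Q140 Pms1 null 18-1, against 7.53 and 8.17 CPM in Q140 18-2 and 18-4. It was at 3.96 CPM in Q140 Pms1 null 27-3, against 7.67 and 7.97 CPM in WT 27-2 and 27-5. Slc7a3 was at 3.04 CPM in 18-1, against 7.56 and 7.77 CPM in 18-2 and 18-4, and at 4.41 CPM in 27-3, against 8.33 and 8.58 CPM in 27-2 and 27-5. The fifth 2-copy animal with a code of 16 or more, Q140 23-4, stood with the null animals at 4.31 CPM of Mthfd2 and 4.41 CPM of Slc7a3. Among codes of 16 or more the log2 fold change was -0.70 ± 0.09 for Mthfd2 (adjusted p = 0.000331) and -0.75 ± 0.10 for Slc7a3 (adjusted p = 0.000331). These values rest on the 4 animals with the highest Mthfd2, of the 5, and those 4 carry only 2 first numbers. The p-values count the 4 as separate animals and make no allowance for likeness within a first number. With the term at 20 the log2 fold changes were -0.43 ± 0.13 (adjusted p = 0.15) and -0.58 ± 0.16 (adjusted p = 0.12).

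Among genes of mismatch repair and known modifiers of repeat length, 5 of 16 tested passed, 4 higher and 1 lower (31.2%, against 14.4% of all genes), with a median of 0.03 on the log2 scale against 0.00 over all genes. Msh3, which recognises loops, Lig1, which seals nicks, and Pms2, another MutL protein, were among those higher, by 0.11, 0.12 and 0.10 on the log2 scale (adjusted p = 0.0261, 0.0285 and 0.0251). Pms2 was named after its values were seen. Pcna, the sliding clamp, was the gene that fell, to 17.6, 19.0 and 20.6 CPM in null animals, against 19.9, 21.1 and 24.0 CPM in 2-copy animals, with 13 of 16 null animals below every 2-copy animal (log2 fold change -0.15 ± 0.03, adjusted p = 0.000496). With the term at 20 these 3 genes were at 0.08, 0.01 and 0.02 and Pcna was -0.12 (adjusted p = 0.107). None of the 16 passed there.

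In base excision and break repair, 6 of 25 were higher and 3 lower (36.0%, against 14.4% of all genes; median 0.04, and -0.01 with the term at 20). Prkdc, the DNA-dependent protein kinase, was higher by 0.24 ± 0.05 (adjusted p = 0.00119), and Neil1, a DNA glycosylase, by 0.21 ± 0.05 (adjusted p = 0.00443). Their values were 0.07 and 0.06 with the term at 20. Xrcc5, the Ku80 subunit, was lower at -0.12 ± 0.03 (adjusted p = 0.00832) and at -0.13 with the term. Of 19 p53 targets, 1 was higher and 5 lower (31.6%, against 14.4% of all genes; median -0.05, and -0.04 with the term at 20), among them Sesn2 and Gadd45a, a stress-induced growth-arrest gene (-0.28 ± 0.09, adjusted p = 0.0437, and -0.27 with the term at 20).

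Of 13 myelin and oligodendrocyte genes tested, 7 fell, 0 rose and 6 did not pass (53.8% called, against 14.4% of all genes), with a median of -0.14. Of the 13, 12 had a value below 0, against 9142 of 18491 over all genes. Members of a list were measured in the same libraries, so their signs are not independent. Sox10, the transcription factor of the lineage, was at 15.1, 19.5 and 23.3 CPM in null animals, against 19.8, 23.2 and 26.0 CPM in 2-copy animals. Its log2 fold change was -0.23 ± 0.05 (adjusted p = 0.00219), and -0.29 ± 0.06 with the term at 20 (adjusted p = 0.0701). Gjb1, a gap-junction protein of oligodendrocytes, and Ermn, a cytoskeletal protein of myelin, were at -0.29 and -0.20 (adjusted p = 0.0192 and 0.0131), and at -0.32 and -0.15 with that term. The summed level of the list was 1601, 1908 and 2245 CPM in null animals, against 1849, 2104 and 2390 CPM in 2-copy animals, so the ranges overlapped. The median of the list was -0.15 with the term at 20, and Mog passed. Of 8 genes of oligodendrocyte precursors, 3 fell (37.5%, median -0.06, and -0.02 with the term).

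Among genes of blood vessels, 5 of 12 endothelial and mural genes fell, 0 rose and 7 did not pass (41.7% called, against 14.4% of all genes; median -0.12, and -0.11 with the term at 20). Cldn5, the tight-junction protein of the blood-brain barrier, was at 9.35, 14.5 and 17.7 CPM in null animals, against 15.4, 17.7 and 23.6 CPM in 2-copy animals. It had a log2 fold change of -0.28 ± 0.07 (adjusted p = 0.0063; -0.28 with the term at 20, adjusted p = 0.162), and 10 of 16 null animals lay below every 2-copy animal. Kdr, a receptor for VEGF, was at -0.33 ± 0.10 (adjusted p = 0.033), and at -0.41 with the term. The summed list was at 352, 390 and 430 CPM in null animals, against 394, 416 and 472 CPM in 2-copy animals. All 10 genes of meninges and fibroblasts had values below 0, against 9142 of 18491 over all genes, and none passed (0%, median -0.18, and -0.13 with the term). The sum of the 10 was 79.0, 118 and 141 CPM in null animals, against 91.1, 130 and 189 CPM in 2-copy animals. The part of the dissected tissue's cell makeup in these values was not tested.

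Chaperones and the unfolded protein response shared a direction. All 13 chaperones were below 0 and 5 fell (38.5%, median -0.06), and all 13 genes of the unfolded protein response were below 0 and 4 fell (30.8%, median -0.10), against 14.4% of all genes called and 6.48% lower. Over all genes, 9142 of 18491 had a value below 0. Dnaja1, an Hsp70 co-chaperone, was at 115, 122 and 132 CPM in null animals, against 117, 133 and 140 CPM in 2-copy animals (-0.11 ± 0.02, adjusted p = 0.00128, and -0.08 with the term at 20). Hspa8, the constitutive Hsp70, was at -0.12 ± 0.03 (adjusted p = 0.00633) and at -0.02 with the term at 20. The list medians with that term were 0.00 for chaperones and -0.01 for the unfolded protein response.

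**Figure D4:**
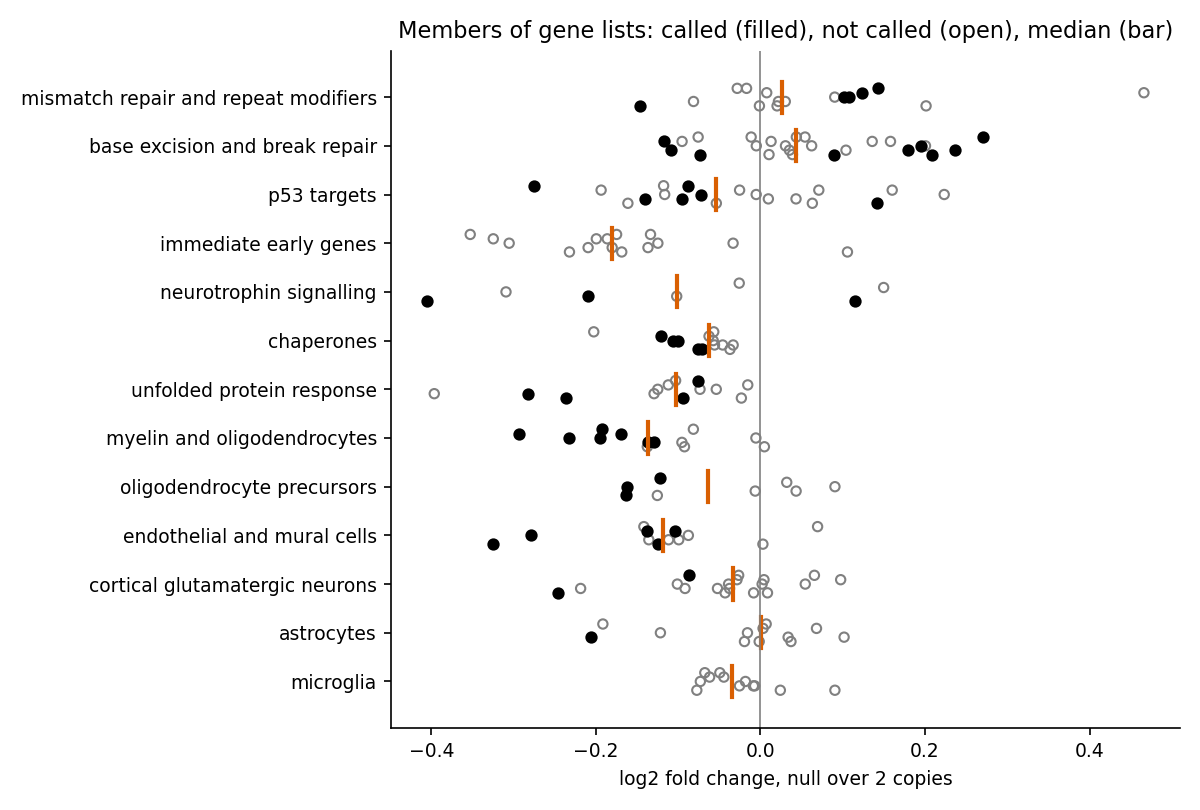
Log2 fold change of null over 2-copy cortex (x axis) for each member of 13 gene lists (y axis); filled points passed an adjusted p below 0.05, open ones did not, and the orange bar is the median of the list. Myelin, endothelial, chaperone and unfolded-protein lists lie mostly below 0, and astrocytes are split evenly about 0.

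Calls among genes of neuronal identity were at shares near that of all genes. Of 18 genes of cortical glutamatergic neurons, 2 fell (11.1%, against 14.4% of all genes). Neurod6, a transcription factor of these neurons, was at 51.8, 59.6 and 71.0 CPM in null animals, against 52.9, 73.3 and 86.2 CPM in 2-copy animals (-0.25 ± 0.05, adjusted p = 0.00285, and -0.09 with the term at 20). Of 12 interneuron genes 2 fell (16.7%), of 11 striatal neuron genes 1 fell (9.09%) and of 10 thalamic and hippocampal genes none passed. Immediate early genes, which neurons switch on with activity, had 14 of 15 members below 0, against 9142 of 18491 over all genes. None of the 15 passed (median -0.18, and -0.30 with the term at 20), with summed levels of 871, 1668 and 2351 CPM in null animals, against 897, 1864 and 3511 CPM in 2-copy animals.

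Of 7 neurotrophin genes 2 fell, Bdnf and Vgf, and 1 rose (42.9% called, against 14.4% of all genes). The gene that rose was the receptor gene Ntrk3 (0.12 ± 0.04, adjusted p = 0.0328, and -0.01 with the term at 20). Glutamate and GABA receptors had 3 of 18 higher and 1 lower (22.2%), including the kainate receptor Grik1 at 11.2, 12.5 and 13.6 CPM in null animals, against 9.67, 11.0 and 12.1 CPM in 2-copy animals (0.18 ± 0.03, adjusted p = 0.000552, and 0.13 with the term at 20). Of 16 clock genes 1 rose and 2 fell (18.8%). The one that rose was the clock repressor Per3, at 91.6, 100.4 and 109 CPM in null animals, against 78.5, 87.5 and 112 CPM in 2-copy animals (0.17 ± 0.03, adjusted p = 0.000572, and 0.09 with the term at 20).

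The remaining lists are read against the 14.4% of all genes called. None of 12 microglial, 14 interferon, 12 class I histocompatibility, 12 glucocorticoid-response, 6 choroid plexus, 4 ependymal or 5 blood genes passed edgeR's quasi-likelihood test. Astrocytes had 1 of 12 lower, synaptic vesicle genes 1 of 14 lower, cholesterol synthesis 1 of 20 higher and 1 lower, and beta protocadherins 2 of 21 lower. Oxidative phosphorylation had 6 of 83 lower (7.23%), ribosomal proteins 11 of 85 lower (12.9%), mitochondrially encoded genes 1 of 13 higher and housekeeping genes 2 of 10 lower (20.0%).

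The share of genes called higher differed between annotation classes, against 7.93% higher and 6.48% lower over all genes. Of 515 transcripts that the annotation marks as still to be experimentally checked (TEC), 91 (17.7%) were higher and 1 (0.194%) lower in null animals, with a median log2 fold change of 0.16. Long intergenic noncoding RNAs had 56 of 583 higher (9.61%) and 5 lower (median 0.06), and antisense transcripts 35 of 563 higher (6.22%) and 4 lower (median 0.07), shares of higher calls near or below that of all genes. Processed transcripts had 29 of 321 higher (9.03%) and 4 lower (median 0.08), sense-intronic transcripts 9 of 64 higher (14.1%) and 0 lower (median 0.17) and snoRNAs 6 of 60 higher (10.0%) and 0 lower (median 0.13). Processed pseudogenes went the other way, with 19 of 1137 higher (1.67%) and 92 lower (8.09%; median -0.03). Protein-coding genes had 1195 of 14850 higher and 1088 lower and a median of 0.00.

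Class medians had the same signs in the split by code for the classes given next. Between codes of 20 or more and lower codes, TEC transcripts had a median log2 difference of 0.25 among null animals alone and 0.24 among 2-copy animals alone. Long intergenic noncoding RNAs had medians of 0.12 and 0.10 in those same comparisons, and processed pseudogenes -0.05 and -0.03. With the term at 20 the medians of the null effect were 0.01 for TEC, 0.00 for long intergenic noncoding RNAs and -0.01 for processed pseudogenes. TEC transcripts took 0.113% to 0.127% of counts in null animals with codes of 20 or more and 0.103% to 0.105% in those with lower codes, and 0.118% to 0.122% and 0.0929% to 0.109% in 2-copy animals split the same way.

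**Figure D5:**
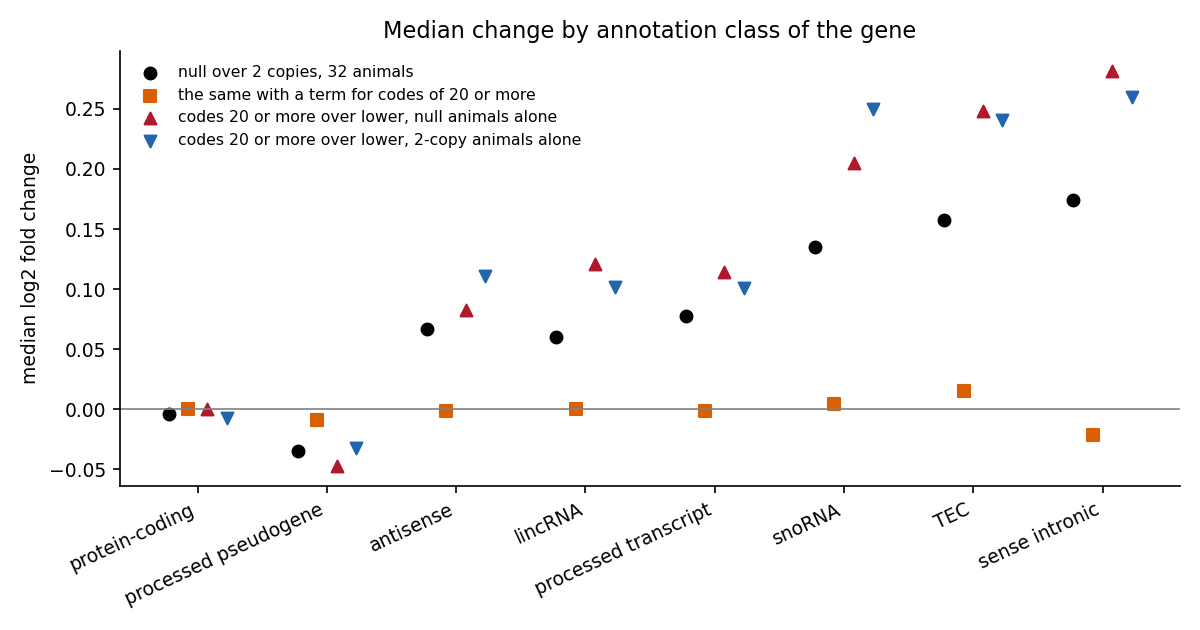
Median log2 fold change (y axis) of the genes of 8 annotation classes (x axis) for null over 2-copy cortex (black circles), the same with a term for codes of 20 or more (orange squares), and codes of 20 or more over lower codes among null animals alone (red triangles) and 2-copy animals alone (blue triangles). The antisense, lincRNA, processed transcript, snoRNA, TEC and sense-intronic classes lie above 0 in the null comparison and in both splits by code, processed pseudogenes lie below 0 in all 3, and all 8 classes lie between -0.02 and 0.01 once the term is in the model.

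The knock-in did not detectably alter the null effect. The null by knock-in interaction was passed by 0 of 18491 genes (0%) in edgeR, with 902 at an unadjusted p below 0.05, and by 0 in DESeq2. Taken apart, Pms1 null against WT called 1415 genes (7.65%), 802 higher and 613 lower, and Q140 Pms1 null against Q140 called 0 (0%), with 2523 at an unadjusted p below 0.05 and 90 calls in DESeq2. These 2 comparisons share no library. Of the 1415 genes, 1302 (92.0%) had the same sign with the knock-in, against 69.0% of all genes. The median size of the 1415 was 0.09 with the knock-in and 0.18 without it. They were chosen by their calls without the knock-in, which raises their size there. The 2 medians therefore cannot show whether the effect was weaker with the knock-in. Across all genes, which are not independent replicates, the 2 sets of log2 fold changes had a Pearson r of 0.318 and a Spearman rho of 0.433. Codes of 20 or more were carried by 7 Pms1 null animals against 2 WT animals, and by 6 Q140 Pms1 null animals against 1 Q140 animal, so the split by code ran through both comparisons.

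Bdnf was at 22.1, 28.3 and 31.7 CPM in Pms1 null animals, against 31.5, 36.8 and 48.8 CPM in WT animals, at a log2 fold change of -0.43 ± 0.11 (adjusted p = 0.0185). With the knock-in it was at 16.8, 24.1 and 29.0 CPM in Q140 Pms1 null animals, against 22.1, 30.5 and 41.5 CPM in Q140 animals, at -0.38 ± 0.11 (adjusted p = 0.177). The ranges overlapped by a little without the knock-in and more with it.

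Sex and 1 copy of Pms1 were tested next. The null by sex interaction was passed by 0 genes (0%) in edgeR, with 950 at an unadjusted p below 0.05, and by 0 in DESeq2. Cortex of 16 animals with 1 copy (8 Pms1 het and 8 Q140 Pms1 het) differed from the 2-copy animals at 0 of 18711 genes (0%), with 1474 at an unadjusted p below 0.05 and 3 calls in DESeq2. Only 1 of these 1-copy animals, Q140 Pms1 het 20-2, carried a first number of 20 or more, against 13 null and 3 2-copy animals. Copy number and code therefore cannot be told apart when the 1-copy calls are set beside those of the null comparison. For the leading genes the values stood side by side as follows, with the 2-copy animals shared by both comparisons. Bdnf was at -0.40 in null and -0.14 in 1-copy animals, Klf10 at -0.49 and -0.04, Mthfd2 at -0.33 and -0.26, Slc7a3 at -0.38 and -0.46 and Tbc1d9b at 0.12 and 0.14. None of the 1-copy values passed.

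In striatum of the same 32 animals, loss of Pms1 called 1368 of 18606 genes (7.35%), 737 higher and 631 lower, and 110 (0.591%) with the term at 20. Genes called in the same direction in both regions numbered 451, 16.9% of the cortical and 33.0% of the striatal list, and 17 were called in opposite directions. The regions share their animals and are not independent. Of the 15 largest cortical decreases, 14 were tested in striatum and 6 passed there in the same direction, among them Klf10 (-0.34 ± 0.09, adjusted p = 0.0146) and Dusp4 (-0.53 ± 0.11, adjusted p = 0.00259). Of the 15 largest increases, 3 did: Wdfy1, Ap1g2 (0.30 ± 0.08, adjusted p = 0.0129) and Lca5l (0.29 ± 0.07, adjusted p = 0.00645). With the term at 20 the striatal values were -0.30 for Klf10 (adjusted p = 0.205) and -0.51 for Dusp4 (0.0707). They were 0.71 for Wdfy1 (0.0437), 0.13 for Ap1g2 (0.55) and 0.26 for Lca5l (0.165), so among these named genes only Wdfy1 passed there.

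Wdfy1, a protein of early endosomes that lies on chromosome 1 with Pms1, had the largest increase of the ranking above. Its level fell into 3 separate bands over the 48 cortex libraries, 18.1 to 20.6 CPM, 32.0 to 36.1 CPM and 45.3 to 52.9 CPM. Null animals numbered 0, 1 and 15 in these bands from low to high, 1-copy animals 0, 8 and 8, and 2-copy animals 7, 7 and 2. The null animal outside the top band was Q140 Pms1 null 18-1, at 33.0 CPM. The log2 fold change was 0.67 ± 0.13 (adjusted p = 0.00119), and 0.75 ± 0.17 with the term at 20 (adjusted p = 0.0701). In striatum it was 0.63 ± 0.12 (adjusted p = 0.00268).

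Genes around Pms1 on chromosome 1 were called at a share near that of all genes. Of 131 genes tested within 10 Mb of Pms1, 21 (16.0%) passed, 14 higher and 7 lower, against 14.4% of all genes. Among them Bzw1, a regulator of translation initiation, was at 172, 189 and 208 CPM in null animals, against 184, 212 and 232 CPM in 2-copy animals (log2 fold change -0.14 ± 0.03, adjusted p = 0.00129). On GRCm38, Pms1 spans chr1:53189187-53297018 and Wdfy1, outside that window, chr1:79702262-79776143.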

How the data were processed

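RNA of cortex was sequenced after stranded TruSeq library preparation, per the labels' protocols. The deposited counts are whole numbers of reads for each gene, not normalized; STAR 2.7.5c, SAMtools 1.10, HTSeq 0.12.3 and GRCm38 are named in the submitters' processing notes, with no role given. No source used here states the strand setting or annotation of the counting. FPKM values deposited by the authors served 1 alternative. Of 48795 genes, 48435 matched GENCODE M21, which gave coordinates and classes.

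The 32 cortex libraries were compared in R 4.3.3 with edgeR 4.0.16 (TMM, filterByExpr by genotype, robust quasi-likelihood fit; null, knock-in and sex as terms), and adjusted p-values are Benjamini-Hochberg over all genes tested; genes below 0.05 are called. The knock-in interaction and comparisons within 1 knock-in state used 1 term per genotype. The sex interaction was a null by sex term, and the striatum and 1-copy fits were also made in edgeR. Alternatives used DESeq2 1.42.0, limma 3.58.1, other scalings and filters, each sex alone, codes as terms and each library left out. The procedures were also run on simulated data, and no result given here rests on that run. The chi-square per degree of freedom of 48 pairs of 1 genotype and sex was at least 3.75, so none was merged, and all 32 libraries went with their labelled sex. Nothing in the labels ties animals to litters or days. The p-values of the main fit set each difference against the spread between animals. They treat the 32 animals as independent, also those that share a first number.

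Named genes were Pms1, Htt, the 15 largest changes each way among called genes with at least 1 CPM, an established name and 1 sign in all 4 strata of sex and knock-in, the 5 smallest p each way, called genes within 10 Mb of Pms1 and up to 3 called members each way of 32 lists; a selection is printed. Members, lists and rules were chosen with earlier results of these data known.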

Additional observations from a re-analysis of the deposited data

Results flagged for a closer look

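Within each genotype of 8 animals, 26 of 288 gene-by-genotype groups of the named genes had 1 animal far from the other 7, by the gap to its nearest neighbour as a share of the whole range on the log2 scale; chance alone gives about 5 in 100 such groups. Each value is set against the range of the other 7 animals of that genotype. Pms1 null animal 16-4 had Ap1g2 at 4.84 CPM against 6.83 to 9.13 CPM, Cdhr3 at 1.44 CPM against 2.26 to 3.06 CPM, Meg3 at 4806 CPM against 5699 to 6574 CPM, Prkdc at 39.0 CPM against 44.8 to 49.0 CPM, Shmt2 at 16.4 CPM against 18.6 to 19.9 CPM and Ybx2 at 3.92 CPM against 5.37 to 6.87 CPM. Q140 animal 23-4 had Bmp1 at 112 CPM against 73.3 to 87.5 CPM, Map3k14 at 8.04 CPM against 5.80 to 6.74 CPM, Meg3 at 6200 CPM against 4491 to 4942 CPM and Per3 at 112 CPM against 82.9 to 94.6 CPM. Both of these animals lie on the far side of a first number of 20 from most of their genotype: 16-4 is the only Pms1 null animal below it and 23-4 the only Q140 animal above it.

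Q140 Pms1 null animal 21-4 had Bfsp2 at 0.866 CPM against 1.28 to 1.70 CPM, Fabp7 at 4.36 CPM against 7.01 to 9.36 CPM and Inmt at 2.15 CPM against 0.957 to 1.40 CPM. WT animal 14-2 had Htt at 208 CPM against 235 to 251 CPM, Lca5l at 1.61 CPM against 2.36 to 2.79 CPM and Prkdc at 30.0 CPM against 37.0 to 44.7 CPM. Q140 Pms1 null animal 18-1 had Nudt4 at 246 CPM against 215 to 227 CPM and Wdfy1 at 33.0 CPM against 45.3 to 50.5 CPM. Q140 Pms1 null animal 27-3 had Klf10 at 45.3 CPM against 24.0 to 32.2 CPM and Map3k14 at 7.47 CPM against 4.63 to 5.42 CPM. Pms1 null animal 22-1 had Uck2 at 29.0 CPM against 30.8 to 31.8 CPM. Pms1 null animal 22-3 had Cldn5 at 9.35 CPM against 12.9 to 16.8 CPM. Pms1 null animal 43-3 had Stc2 at 1.78 CPM against 1.20 to 1.44 CPM. Q140 Pms1 null animal 43-1 had Pcdha11 at 4.65 CPM against 3.16 to 3.66 CPM. WT animal 11-4 had Pcna at 23.1 CPM against 20.2 to 21.5 CPM. WT animal 8-4 had Cct4 at 70.1 CPM against 75.8 to 81.2 CPM.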

How the results depend on the processing

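The pooled call of 2665 genes depended most on how the animal codes were handled. Moved counts were 408 for codes of 16 or more only, 388 with a term for those codes, 1765 with limma voom and a correlation of 0.173 within the first number, 356 in females only, 273 in males only, and, chosen after seeing the data, 6 with a term for codes of 20 or more, 5 for those codes only, 0 for lower codes only and 178 with the term at 20 in DESeq2. Of these calls 273, 289, 1761, 329, 252, 6, 5, 0 and 134 were among the 2665. Other settings gave 2704 with RLE size factors, 2621 without TMM, 3087 with DESeq2, 2054 without a filter, 2982 with all 48 libraries, 2546 without a sex term, and 2547 and 2561 on FPKM values with pseudocounts of 0.1 and 1. Leaving out 1 library gave 2237 (without WT 11-4) to 3475 (without Q140 23-4) calls.

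Pms1 null against WT had 142 calls with the term at 20, against 1415 without it. Q140 Pms1 null against Q140 had 90 calls in DESeq2 and 2 with all 48 libraries, against 0. The sex interaction had 7 calls within animals without the knock-in, against 0 in all. The 1-copy comparison had 3 calls in DESeq2, against 0, and the striatum comparison 110 with the term at 20, against 1368.

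Of the genes named, signs turned for Ntrk3 with the term at 20 (-0.010 in edgeR and -0.0098 in DESeq2) and for codes of 20 or more only (-0.032), for Muc3a for codes of 20 or more only (-0.019), and for lower codes only in Aanat (-0.11), Cdhr3 (-0.00026), Pms2 (-0.0035) and Hspa8 (0.016). None of these reversed values passed the threshold, and the cause was not tested.

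Leaving out 1 library ended the call of 11 named genes. Without the library named, adjusted p was 0.0504 to 0.0821 for Gadd45a (7-3, 8-2, 11-2, 11-4, 12-4, 15-1, 17-2, 18-2, 18-4, 21-4, 22-1, 27-2, 27-5, 43-3, 43-5, 44-1, 44-2), 0.0531 for Inmt (11-2), 0.0512 to 0.0531 for Kdr (8-2, 11-2, 12-4, 22-1, 22-3), 0.0512 to 0.059 for Lig1 (8-2, 11-2, 12-4, 18-2, 18-4, 28-4, 43-5, 44-2), 0.0544 to 0.0583 for Msh3 (22-1, 44-1), 0.0548 to 0.0583 for Mthfd2 (18-2, 18-4, 27-5), 0.0508 to 0.055 for Nipal4 (18-4, 22-3, 27-5), 0.0505 to 0.0594 for Ntrk3 (11-2, 11-4, 14-2, 15-1, 22-1, 28-4, 43-1, 43-5, 44-2, 44-3), 0.051 for Pms2 (22-1), 0.0505 to 0.0685 for Shmt2 (14-2, 16-4, 18-2, 18-4, 27-2, 27-5) and 0.0504 to 0.0825 for Slc7a3 (8-2, 12-4, 14-2, 16-4, 17-2, 18-1, 18-2, 18-4, 21-4, 22-1, 22-2, 22-3, 26-5, 27-2, 27-3, 27-5, 43-5, 44-1, 44-2, 44-3). The 32 libraries come from 32 animals and the labels pair none of them, but 2 of 18 first numbers are carried by both null (2) and 2-copy (4) animals. With the first number as a replicate block, chosen after seeing the data and fitted without sex because each number holds 1 sex, 56 genes were called, 34 of them among the 2665, and the signs of Aanat (-0.011), Loxl1 (0.021), Pms2 (-0.076), Neil1 (-0.056) and Ntrk3 (-0.071) turned without passing. The cut at 20 was placed after seeing the data, and genotype and code cannot be fully told apart, since 3 null and 3 2-copy animals carry the separation. Genes at about 1 CPM, such as Tmem267, Aanat and Stc2, rest on few reads and are the least precise.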
